A study of Mus musculus with 6 samples.

Results

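The genes examined were 50 genes of the cell cycle and of DNA replication, chosen by name from the 21999 genes of the deposited count table. They comprised 22 S-phase genes, which act in or prepare for the copying of DNA, and 28 mitotic genes, which act in chromosome condensation, spindle assembly and cell division. All 50 genes were found in the table, and all 50 passed the filter on low counts, as did 13609 genes of the table. Total RNA had been sequenced from lung microvascular endothelial cells (LMVEC), the cells that line the small vessels of the lung. The 6 libraries came from 3 isolations of wild type (Ptprz1+/+) and 3 isolations of knockout (Ptprz1-/-) mice, both of SV129/B6 strain, and the cells were untreated in both groups. Ptprz1 encodes a receptor-type tyrosine phosphatase. For each isolation the lungs of 2 to 5 mice aged between 3 and 8 weeks were pooled, so that a library stands for a pool and not for an animal. The cells were grown in serum with endothelial growth supplement until the plate was confluent and were then taken with beads against CD31, a surface protein of endothelial cells.

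A dividing cell makes its cell-cycle transcripts in turns. At the passage from G1 to S phase the E2F transcription factors switch on cyclin E, the MCM helicase that opens replication origins and the enzymes that supply nucleotides. Later, in G2 and mitosis, the B-Myb, FoxM1 and MuvB proteins switch on cyclin B, the mitotic kinases, the kinetochore and the spindle motors. Cells at rest in a confluent layer leave the cycle, and most of these transcripts then fall to low levels, while CDK inhibitors such as p21, encoded by Cdkn1a, are often high. In RNA of a whole culture, fewer cells in a phase of the cycle and less of a transcript per cell cannot be told apart.

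The libraries held between 14496881 and 17709663 counts on genes. The targeted gene did not separate the groups. Its counts were 197 to 1837 in wild type and 895 to 1320 in the libraries labelled Ptprz1-/-, and the counts cover the gene as a whole and not its exons one by one. Endothelial genes were low in most of the libraries. The summed level of 12 endothelial markers, in CPM (counts divided by the TMM-scaled size of the library), was 569 in Ptprz1+/+ replicate 3 and 186 in the library labelled Ptprz1-/- replicate 3, and between 17.2 and 36.9 in the other 4 libraries. None of the 12 was at 0 in every library. Pecam1, which encodes CD31, ranged from 1.37 to 91.0 CPM and Cdh5, which encodes VE-cadherin, from 3.60 to 199 CPM. The sum of 10 fibroblast markers was between 21025 and 35139 CPM in all 6 libraries, and Col1a1, a collagen gene, was between 2494 and 5992 CPM. In 4 of the 6 libraries Pecam1 was thus at most 4.40 CPM and Cdh5 at most 14.3 CPM, which goes against the label of endothelial cells. Among the cell-cycle genes Ptprz1+/+ replicate 2 stood apart from the other 5 libraries, and the class medians, counts of direction and mean levels that rest on it are given with and without it.

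Promoters of the cell-cycle genes are shown first, since S-phase and mitotic genes are known to be driven through different sequence elements. Mitotic promoters often carry CCAAT boxes, bound by NF-Y, next to a cell cycle genes homology region (CHR, searched here as TTTGAA or TTTAAA), and S-phase promoters often carry E2F elements (searched as TTTCCCGC, TTTGGCGC or TTTCGCGC). The windows of 300 bases, from 250 bases before to 50 after a transcript start, were taken from RefSeq (GRCm38.p6), which held 41 of the 50 genes. Some genes had more than 1 window. The windows of Ccna2, Tpx2, Kif20a, Mcm4, Ccne2, Gins2, Aurkb, Cdc25c and Foxm1 were missing. The 4 windows below show, for each class, the gene of highest mean CPM that held the element of its class and the one that lacked it, on the strand of the gene, with every match on either strand in capitals. Mki67 (chr7:135716330-135716629, minus strand) held 2 copies of the CHR and Nusap1 (chr2:119618048-119618347, plus strand) held no match. Mcm7 (chr5:138171834-138172133, minus strand) held E2F elements and Rrm1 (chr7:102441445-102441744, plus strand) held CCAAT boxes but no E2F element. Mcm7 had 2 windows, and the one with the most E2F elements is shown. The start in this window lies inside the gene as deposited, which begins at 138172422 on the minus strand.
Mki67: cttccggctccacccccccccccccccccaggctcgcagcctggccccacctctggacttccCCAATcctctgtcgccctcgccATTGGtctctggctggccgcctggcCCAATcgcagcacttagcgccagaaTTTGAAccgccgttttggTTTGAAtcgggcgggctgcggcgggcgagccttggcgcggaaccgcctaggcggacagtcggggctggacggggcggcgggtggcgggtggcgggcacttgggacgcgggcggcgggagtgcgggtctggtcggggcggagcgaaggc
Nusap1: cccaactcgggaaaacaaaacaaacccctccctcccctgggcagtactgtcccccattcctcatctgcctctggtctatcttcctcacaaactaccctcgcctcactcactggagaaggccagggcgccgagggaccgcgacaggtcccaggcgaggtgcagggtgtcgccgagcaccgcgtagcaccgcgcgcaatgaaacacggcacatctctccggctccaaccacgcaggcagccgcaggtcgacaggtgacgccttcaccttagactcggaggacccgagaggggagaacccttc
Mcm7: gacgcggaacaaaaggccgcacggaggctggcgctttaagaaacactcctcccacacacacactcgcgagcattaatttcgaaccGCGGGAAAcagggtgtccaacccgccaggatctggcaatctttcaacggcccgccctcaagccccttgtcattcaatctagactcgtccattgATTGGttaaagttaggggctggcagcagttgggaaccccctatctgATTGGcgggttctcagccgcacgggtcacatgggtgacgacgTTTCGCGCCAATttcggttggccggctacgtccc
Rrm1: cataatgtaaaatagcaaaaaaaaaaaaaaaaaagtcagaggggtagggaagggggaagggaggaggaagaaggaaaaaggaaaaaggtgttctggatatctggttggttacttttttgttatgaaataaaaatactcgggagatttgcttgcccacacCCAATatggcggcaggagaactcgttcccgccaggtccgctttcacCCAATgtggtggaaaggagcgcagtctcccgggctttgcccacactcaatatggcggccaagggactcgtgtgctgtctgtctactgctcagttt
In Mki67 the capitals mark CCAAT boxes (CCAAT, or ATTGG where the box lies on the other strand) 188, 166 and 141 bases before the start, and TTTGAA 116 and 98 bases before it. In Mcm7 they mark GCGGGAAA, the other strand of TTTCCCGC, 165 bases before the start, ATTGG 72 and 26 bases before it, and TTTCGCGC beginning 17 bases after it, whose last base is the first of a CCAAT box. In Rrm1 both CCAAT boxes lay on the strand shown, 91 and 45 bases before the start.

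The classes differed in how many genes had these letters in a window. A gene with more than 1 window was counted once, if any of its windows held a match. A CHR was found for 19 of 22 mitotic genes with a window (86.4%) and for 8 of 19 S-phase genes (42.1%). Over all 27025 genes with a window the share was 30.6%. An E2F element was found for 7 of 19 S-phase genes (36.8%), namely Cdc6, Cdt1, Mcm3, Mcm5, Mcm6, Mcm7 and Uhrf1. It was found for 1 mitotic gene (4.55%), Cdk1, and for 2.12% of all genes with a window. The CCAAT box was found for 77.3% of the mitotic, 63.2% of the S-phase and 41.1% of all these genes. Both a CCAAT box and a CHR were found for 16 of the 22 mitotic genes (72.7%), 31.6% of the S-phase and 13.4% of all these genes. A match of so few letters is a description of the window and does not show that the element is bound.

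Per transcript length, which class was higher depended on the library. In Ptprz1+/+ replicate 2 the median gene was at 18.7 FPKM among the mitotic and at 11.5 FPKM among the S-phase genes, while in each of the other 5 libraries the mitotic median (1.03 to 4.01) was below the S-phase median (2.37 to 4.67). The mean FPKM (fragments per kilobase of gene length, scaled to the size of the library, as deposited) over the 6 libraries had a median of 5.31 over the S-phase genes and of 5.41 over the mitotic genes, and without Ptprz1+/+ replicate 2 of 3.63 and 2.28. The highest was Pcna, the sliding clamp of the replication fork, with a mean of 27.4 FPKM and a range from 20.9 to 42.5. Rrm1, the large subunit of ribonucleotide reductase, followed at 22.9 FPKM (13.7 to 35.8). Cdc20, which activates the anaphase-promoting complex, came next at 16.4 FPKM, but its range from 3.62 to 57.1 spanned those of both, and without Ptprz1+/+ replicate 2 its mean was 8.25 FPKM, below that of E2f1 at 11.1 FPKM. Pcna and Rrm1 stayed the highest without that library, at 24.4 and 20.4 FPKM. The lowest were Cdc6, which loads the MCM helicase, at 0.600 FPKM, and Fen1, the flap endonuclease of Okazaki fragments, at 0.232 FPKM. Fen1 rested on 5 to 13 counts per library. The exons of Fen1 overlap those of the antisense gene Gm10143 over 1909 bases (GENCODE M21), and whether reads were counted by strand is not given in the sources used here, so its level is uncertain. No other gene of the 50 had fewer than 12 counts in a library.

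**Figure D1:**
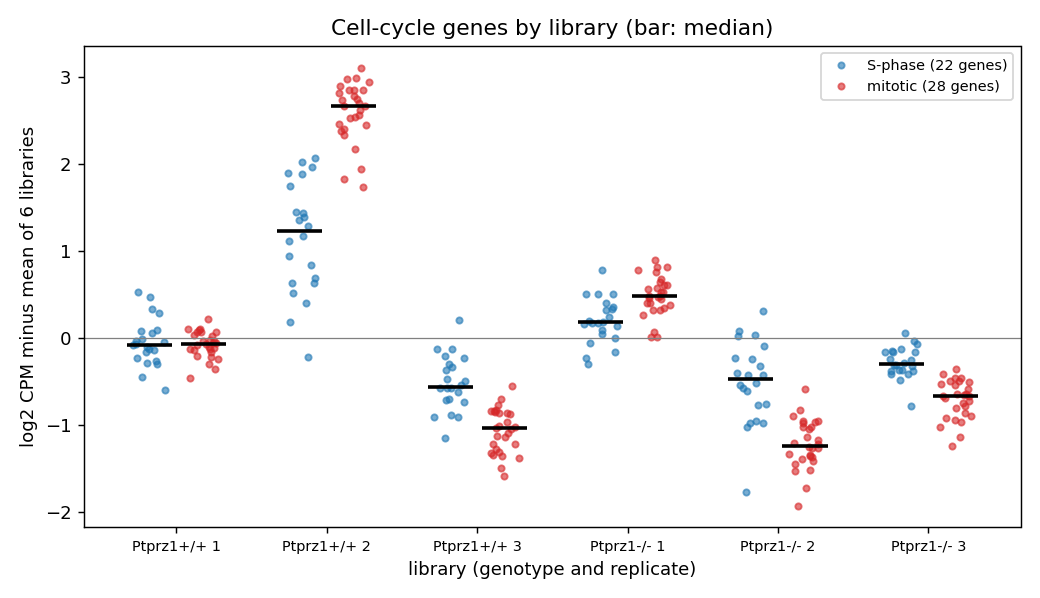
Each point is 1 gene in 1 library, as log2 CPM minus that gene's mean over the 6 libraries (y axis, log2 units), for 22 S-phase genes (blue) and 28 mitotic genes (red); bars are medians. The medians of Ptprz1+/+ replicate 2 lie at 1.23 (S-phase) and 2.67 (mitotic), above those of every other library.

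The 50 genes took 0.275% of all counts in Ptprz1+/+ replicate 2 (95% Clopper-Pearson interval 0.273 to 0.278) and 0.0655% and 0.0430% in replicates 1 and 3. In the libraries labelled Ptprz1-/- they took 0.0920%, 0.0408% and 0.0563%. The intervals of the 6 libraries did not overlap, but they cover counting error only. The groups overlapped: the highest share was in one Ptprz1+/+ library and the next in a library labelled Ptprz1-/-. The S-phase genes alone ranged from 0.0271% to 0.0782% of counts and the mitotic genes from 0.0137% to 0.197%. The mitotic genes had 2.52 counts for each count on the S-phase genes in Ptprz1+/+ replicate 2, and 0.922 and 0.582 in replicates 1 and 3. In the libraries labelled Ptprz1-/- this ratio was 1.04, 0.507 and 0.626. The balance between the classes ran in the same order of libraries as their total, from the library with the largest share of cell-cycle counts and the most mitotic mix to the one with the least of both. The same order was found for summed FPKM, with ratios between 0.416 and 2.31. The plot of each gene by library shows the wider swing of the mitotic genes.

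Ptprz1+/+ replicate 2 was the highest library for 28 of 28 mitotic genes and for 21 of 22 S-phase genes, the exception being Fen1, while 26.9% of all genes tested were highest there. Its CPM exceeded the median of the other 5 libraries 9.95-fold for the median mitotic gene (range 4.77 to 16.7) and 2.86-fold for the median S-phase gene (0.709 to 6.52). Over all genes tested the median of this ratio was 1.00. This library was also the lowest for 26.5% of all genes tested, against 12.7% to 16.5% for each other library. From the highest to the lowest of the 6 libraries, the median mitotic gene spanned 17.4-fold (5.05 to 28.6) and the median S-phase gene 3.28-fold (1.25 to 10.5). In what follows, the values of a gene are CPM, first in Ptprz1+/+ replicates 1, 2 and 3 and then in replicates 1, 2 and 3 of the libraries labelled Ptprz1-/-.

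Among the genes of chromosome structure, Mki67 encodes Ki-67, the surface coat of mitotic chromosomes and the usual marker of cycling cells (GRCm38, chr7:135689788-135716379, minus strand). It was at 30.4, 236 and 17.8 CPM and at 40.7, 11.2 and 20.7 CPM. The means were 94.7 ± 122 and 24.2 ± 15.1 CPM (SD, n = 3 each), so that the SD of the Ptprz1+/+ group exceeded its mean. Without replicate 2 the other 2 Ptprz1+/+ libraries lay inside the range of the libraries labelled Ptprz1-/-. Top2a, the topoisomerase that untangles sister chromatids, had the same order of libraries, at 37.5, 209 and 19.4 and at 48.6, 17.2 and 24.0 CPM.

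The 5 kinetochore genes (Cenpa, Cenpe, Cenpf, Ndc80, Nuf2) build the site where microtubules attach to the centromere. In Ptprz1+/+ replicate 2 they were 8.91 to 12.7 times the median of the other libraries. Cenpf, a large protein of the outer kinetochore, was at 7.43, 81.2 and 4.73 CPM and at 12.3, 4.32 and 7.40 CPM. Ndc80, of the complex that grips the microtubule end, had the widest span of the 50 genes, 28.6-fold, from 0.892 CPM in the library labelled Ptprz1-/- replicate 2 to 25.6 CPM in Ptprz1+/+ replicate 2. Only 13 reads were counted on it in the lower of these.

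The 8 kinases, passenger proteins and checkpoint genes (Aurka, Aurkb, Birc5, Plk1, Bub1, Bub1b, Ttk, Cdc20) time the separation of chromosomes. Their ratio in Ptprz1+/+ replicate 2 was 7.82 to 15.8. Cdc20 was at 17.2, 99.7 and 7.63 CPM and at 28.9, 6.86 and 12.7 CPM. Bub1, the checkpoint kinase with the lowest fitted log2 fold change of the mitotic genes, was at 5.20, 39.7 and 1.89 CPM and at 5.09, 2.13 and 3.77 CPM. In both genes a single Ptprz1+/+ library was high and the other 2 fell among or beside those labelled Ptprz1-/-.

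The 7 spindle and cytokinesis genes (Kif11, Kif20a, Kif23, Kif2c, Tpx2, Nusap1, Prc1) encode motors and bundlers of microtubules. Kif2c, a motor that takes microtubule ends apart, had the largest ratio of all, 16.7, with 4.59, 46.9 and 2.02 CPM and 8.19, 2.81 and 2.18 CPM. Kif20a, a motor of the midzone, was at 10.5, 72.7 and 4.86 CPM and at 13.3, 3.84 and 5.15 CPM. Tpx2, which nucleates spindle microtubules and had the highest mean CPM of the group, moved less. It was at 34.1, 113 and 18 CPM and at 38.2, 14.2 and 17.0 CPM, a ratio of 6.26. Prc1, which crosslinks the midzone, had a ratio of 6.62, with 18.5, 82.7 and 7.45 CPM and 27.1, 9.33 and 12.5 CPM.

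Cyclins and regulators of mitosis (Cdk1, Ccna2, Ccnb1, Ccnb2, Cdc25c, Foxm1) included the 2 mitotic genes that swung least. Foxm1, the transcription factor of the G2 programme, was at 18.5, 65.5 and 13.3 CPM and at 19.8, 13.0 and 13.7 CPM, a ratio of 4.77. Cdk1, the kinase that starts mitosis, was at 16.0, 59.8 and 9.09 CPM and at 24.2, 8.44 and 12.1 CPM, a ratio of 4.94. Cdc25c, the phosphatase that activates Cdk1, reached 14.2. Even the least of these ratios exceeded the S-phase median of 2.86.

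The S-phase genes were less uniform than the mitotic ones. The 10 genes of origin licensing and the helicase (Mcm2 to Mcm7, Cdc6, Cdt1, Cdc45, Gins2) had ratios from 1.67 to 5.48, with a median of 2.95. Mcm6 was at 11.6, 45.6 and 4.92 CPM and at 13.2, 6.52 and 8.32 CPM. Mcm2, its partner in the same hexamer and the one with the highest mean CPM of the group, was at 35.1, 39.9 and 20.1 CPM and at 31.4, 23.5 and 22.5 CPM, a ratio of 1.70. Although their products act as parts of 1 complex, Mcm6 thus spanned 9.26-fold and Mcm2 1.99-fold between libraries. Cdt1, which loads the helicase and is degraded once replication starts, was at 12.2, 20.4 and 7.07 CPM and at 18.7, 13.5 and 11.8 CPM.

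Of the genes of the fork and of nucleotide supply (Pcna, Fen1, Rrm1, Rrm2, Tyms), the 2 subunits of ribonucleotide reductase were unlike. Rrm1 was at 71.9, 139 and 68.7 CPM and at 123, 58.1 and 84.4 CPM, a ratio of 1.94. Rrm2, the small subunit, which is made in S phase, was at 10.0, 39.9 and 7.19 CPM and at 15.2, 6.86 and 9.05 CPM, a ratio of 4.41. Pcna was at 32.6, 62.8 and 32.7 CPM and at 36, 42.6 and 41.9 CPM, and unlike the mitotic genes it was lower in the first than in the second library labelled Ptprz1-/-. Fen1 was between 0.315 and 0.785 CPM.

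Both genes of chromatin inheritance and repair swung by about as much as the strongest licensing genes. Uhrf1, which keeps DNA methylation through replication, was at 14.2, 50.6 and 8.96 CPM and at 13.4, 6.79 and 10.0 CPM. Brca1, of homologous recombination, was at 4.11, 17.0 and 2.97 CPM and at 4.96, 2.26 and 3.43 CPM. Their ratios were 5.04 and 4.95.

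Genes that act at the G1 to S passage (Ccne1, Ccne2, E2f1, E2f8, Mybl2) included both the smallest span of the 50 genes and the largest S-phase span. E2f1, an activator of the S-phase programme, was nearly level, at 30.6, 36 and 28.8 CPM and at 33.7, 32.1 and 28.9 CPM, and its span of 1.25-fold was the smallest of the 50 genes. E2f8, a repressor that E2F1 itself induces, had the largest S-phase ratio at 6.52. Mybl2, which encodes B-Myb, had the largest S-phase span, 10.5-fold, and rested on 12 counts in its lowest library. Ccne1, cyclin E1, followed the genotype labels and is described with the test of genotype.

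**Figure D2:**
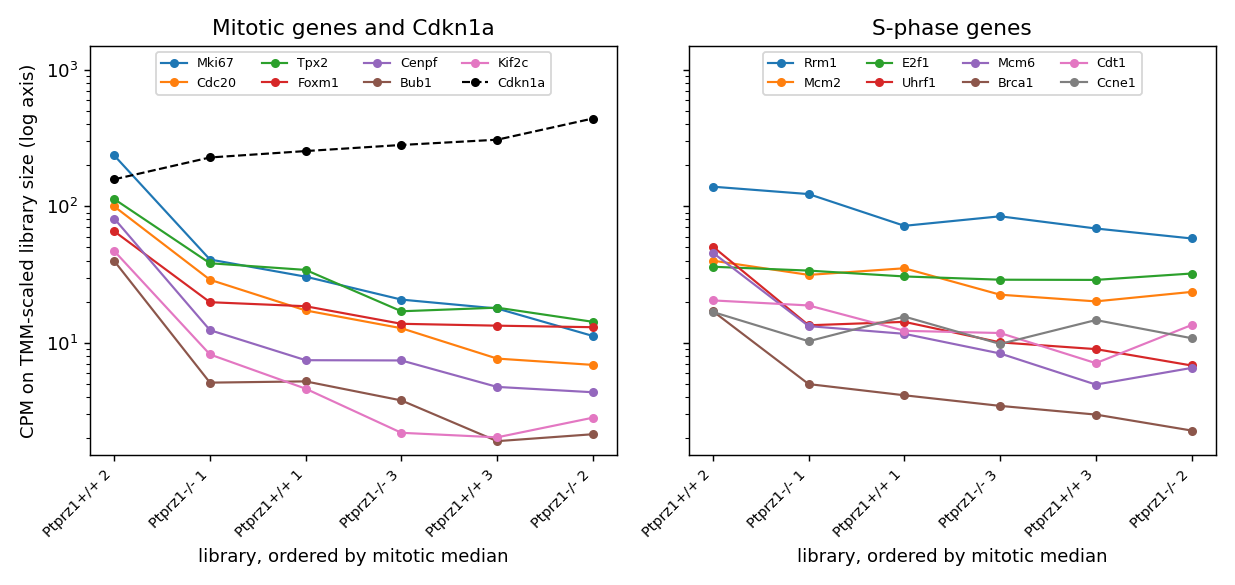
CPM on the TMM-scaled library size (log axis) of 7 mitotic genes and Cdkn1a (left) and of 8 S-phase genes (right) in the 6 libraries, ordered by the mitotic median (x axis); lines join the values of a gene. Along the axis Mki67 runs from 236 down to 11.2 CPM and Cdkn1a from 158 up to 440, with E2f1 between 28.8 and 36.

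Outside that library the cell-cycle genes still moved together. Ordered by the median of the mitotic genes, the libraries ran from Ptprz1+/+ replicate 2 over Ptprz1-/- replicate 1, Ptprz1+/+ replicate 1, Ptprz1-/- replicate 3 and Ptprz1+/+ replicate 3 to Ptprz1-/- replicate 2, so that the genotype labels alternated. The medians, as log2 CPM less the mean of each gene, were 2.67, 0.48, -0.07, -0.66, -1.04 and -1.24. For the S-phase genes the first 4 places were the same, at 1.23, 0.18, -0.08 and -0.30, and the last 2 changed places, at -0.56 in Ptprz1+/+ replicate 3 and -0.47 in Ptprz1-/- replicate 2. This exact order of 6 libraries was shown by 15 mitotic and 5 S-phase genes, 40.0% of the 50, against 0.823% of all genes tested. The first 3 libraries all lay above the last 3 in 28 of 28 mitotic and 12 of 22 S-phase genes, against 9.85% of all genes. The order was read from these same genes, so the counts describe it and do not test it.

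With Ptprz1+/+ replicate 2 left out, the library labelled Ptprz1-/- replicate 1 was the highest of the other 5 for 41 of the 50 genes (82.0%), against 25.2% of all genes. Within the libraries labelled Ptprz1-/-, replicate 1 exceeded replicate 2 by 3.41-fold for the median mitotic gene (1.53 to 7.93) and by 1.77-fold for the median S-phase gene (0.844 to 6.63). Within the Ptprz1+/+ group, replicate 1 exceeded replicate 3 by 1.96-fold and 1.39-fold. The mitotic genes thus swung more than the S-phase genes among libraries of either genotype. As a description over 6 libraries, the median Pearson correlation of log2 CPM was 0.98 between mitotic genes (378 pairs), 0.82 between S-phase genes (231 pairs) and 0.92 across the classes (616 pairs). Without Ptprz1+/+ replicate 2, over 5 libraries, the medians were 0.94, 0.59 and 0.80. All genes share the depth and scaling of a library, and no p-value is attached to these.

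**Figure D3:**
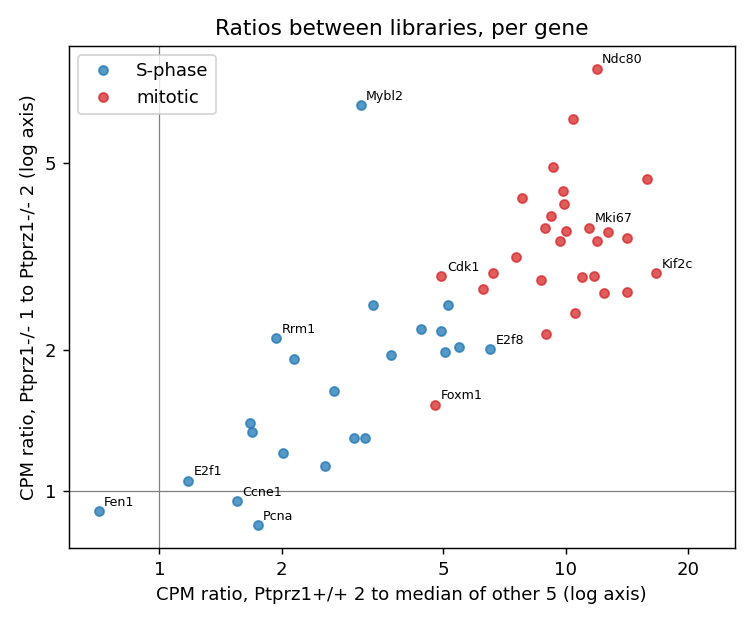
Each point is 1 gene, by its CPM ratio of Ptprz1+/+ replicate 2 to the median of the other 5 libraries (x axis, log scale) and of Ptprz1-/- replicate 1 to Ptprz1-/- replicate 2 (y axis, log scale). The mitotic genes (red) lie at 4.77 or more on the x axis and at 1.53 or more on the y axis, while E2f1, Ccne1, Pcna and Fen1 lie near or below 1 on the y axis.

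No sum of cell type markers had this exact order of 6 libraries, but 2 sums came near it outside Ptprz1+/+ replicate 2. The endothelial sum was highest in Ptprz1+/+ replicate 3 (569 CPM) and in the library labelled Ptprz1-/- replicate 3 (186 CPM), which were both among the 3 lowest libraries for the mitotic genes. Ptprz1+/+ replicate 2 had the lowest smooth muscle and pericyte sum (402 CPM over 8 markers, 834 to 4077 elsewhere) and the lowest mesothelial sum (56.3 CPM over 8 markers, 91.7 to 1383 elsewhere). Elsewhere the smooth muscle and pericyte sum was 4077 CPM in Ptprz1-/- replicate 1 and 3735 in Ptprz1+/+ replicate 1. It was 1289 in Ptprz1+/+ replicate 3, and 895 and 834 in Ptprz1-/- replicates 3 and 2. The mesothelial sum was 1383, 281 and 219 CPM in Ptprz1-/- replicates 1 and 3 and Ptprz1+/+ replicate 1. It was 115 in Ptprz1-/- replicate 2 and 91.7 in Ptprz1+/+ replicate 3. The fibroblast sum of Ptprz1+/+ replicate 2, 25539 CPM, was within the range of the others. The leukocyte sum was 32.0 CPM there and between 10.6 and 56.0 in the other libraries, and the epithelial sum did not exceed 1.32 CPM in any library. Their part in the result was not tested.

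**Figure D4:**
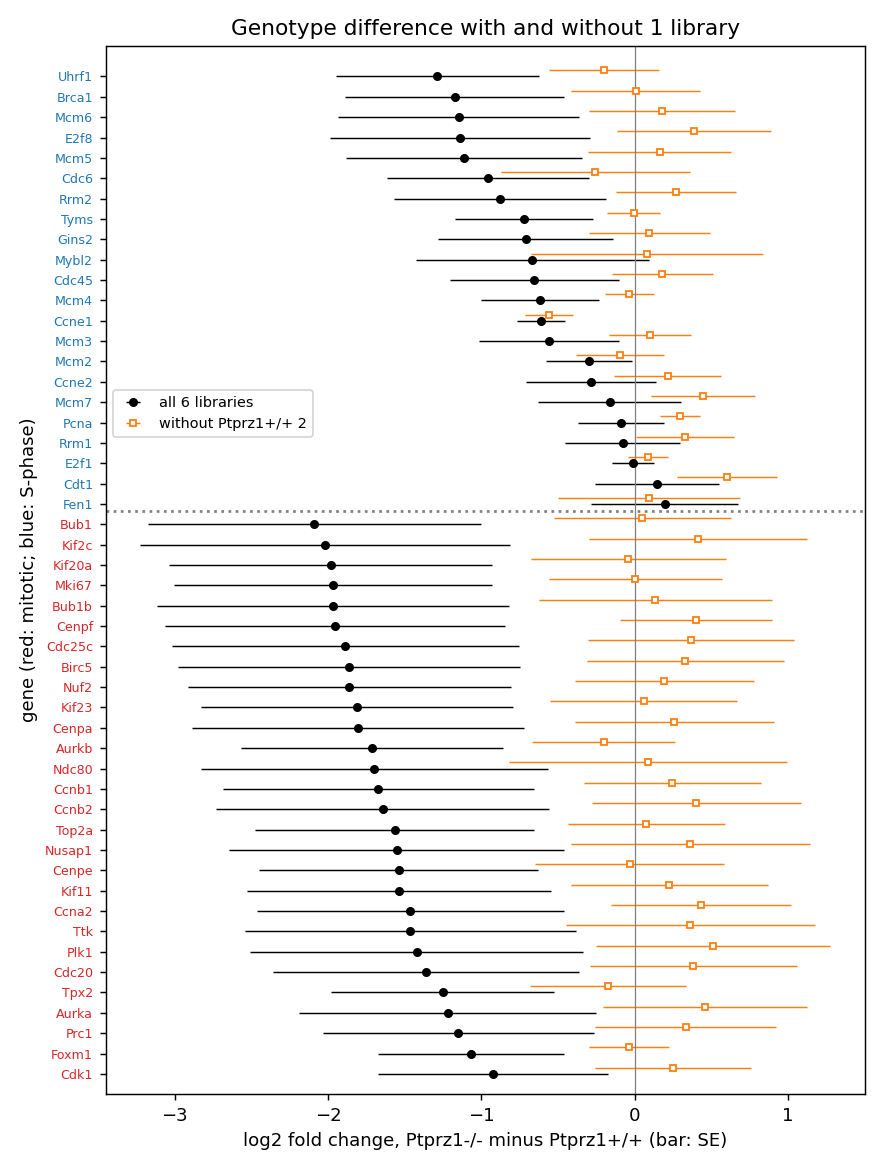
Log2 fold change of each gene, Ptprz1-/- minus Ptprz1+/+ (x axis, log2 units; bars are SE), by edgeR's quasi-likelihood fit to all 6 libraries (black circles) and without Ptprz1+/+ replicate 2 (open squares). With all libraries 48 of 50 genes lie below 0, and without that library 39 of 50 lie above 0.

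The comparison that the study was built for, Ptprz1-/- against Ptprz1+/+, called none of these genes. With edgeR's quasi-likelihood test and Benjamini-Hochberg adjustment over all 13609 genes, 0 of 50 genes passed an adjusted p of 0.05, and 0 of all genes did (0%). At an unadjusted p under 0.05 stood 1 of the 50, Ccne1, which was lower, against 366 of all genes (2.69%, and 1.56% lower). DESeq2 also called 0 of the 50, with 31 genes called in the whole table (0.194%), and 13 of the 48 genes it gave a p had an unadjusted p under 0.05, all of them lower (2.57% of all genes in either direction). Without Ptprz1+/+ replicate 2, DESeq2 gave an unadjusted p under 0.05 to 1 of the 50 (1.97% of all genes).

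The fitted log2 fold changes were nevertheless mostly negative. They were below 0 for 28 of 28 mitotic genes, with a median of -1.66, and for 20 of 22 S-phase genes, with a median of -0.64, against 50.9% of all genes tested and a median of -0.00. Standard errors were large beside these values. Mki67 had a log2 fold change of -1.97 (SE 1.04), Bub1 of -2.09 (SE 1.08), Cdk1 of -0.92 (SE 0.75) and Mcm2 of -0.30 (SE 0.28). Leaving out Ptprz1+/+ replicate 2 turned the direction: the medians became 0.25 for the mitotic and 0.10 for the S-phase genes, and 23 of 28 and 16 of 22 lay above 0, while 48.6% of all genes then lay below 0. Mki67 was then at 0.01 and Kif2c at 0.41. Leaving out Ptprz1+/+ replicate 3 instead put all 50 below 0, with 21 of them at an unadjusted p under 0.05 (3.53% of all genes) and the lowest adjusted p of the 50 at 0.990 by the same edgeR test. The 3 Ptprz1+/+ libraries held the highest and 1 of the 2 lowest places. The mitotic median was -2.05 without Ptprz1+/+ replicate 1 and -2.16 without Ptprz1+/+ replicate 3. Of the 3, only leaving out replicate 2 turned the sign of the class medians. The plot of log2 fold changes shows both fits.

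Ccne1 was the only gene of the 50 whose libraries did not overlap between the genotypes, against 7.28% of all genes tested (3.73% with the libraries labelled Ptprz1-/- lower and 3.55% with them higher). Its product, cyclin E1, binds Cdk2 and drives the cell from G1 into S phase (GRCm38, chr7:38097984-38107534, minus strand). The wild type libraries held 15.5, 16.8 and 14.6 CPM of Ccne1, and those labelled Ptprz1-/- held 10.2, 10.8 and 9.78 CPM, from 232 to 305 and from 148 to 165 counts. The means were 15.6 ± 1.07 and 10.3 ± 0.501 CPM (SD, n = 3 each). The log2 fold change was -0.61 (SE 0.16), with an adjusted p of 1.00 by edgeR's quasi-likelihood test and an unadjusted p of 0.00704. The exact two-sided permutation test gave 0.10, the smallest p that 3 libraries against 3 allow. Any gene without overlap gets this p, so it adds nothing to the lack of overlap. The difference was of like size with any single library left out, from -0.65 to -0.56. At 1 of 50, or 2.00%, the share of genes without overlap was not above that of all genes. Ccne2, which encodes the related cyclin E2, overlapped between the groups, at 1.75, 4.45 and 2.21 CPM and at 2.73, 2.26 and 1.92 CPM. Without Ptprz1+/+ replicate 2, Pcna also did not overlap, in the other direction (7.74% of all genes were higher in this way). Without Ptprz1+/+ replicate 3, 6 of the 50 were lower without overlap (8.38% of all genes), and 5 were without the library labelled Ptprz1-/- replicate 1 (8.13%).

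Other genes of the same processes had values of the same kind. Of 45 further S-phase genes, 42 had a log2 fold change below 0 (median -0.36), and of 63 further mitotic genes 62 did (median -1.18), against 50.9% of all genes, and 0 of either list passed the adjusted p of 0.05 by edgeR's quasi-likelihood test or by DESeq2. At an unadjusted p under 0.05 in the edgeR test stood 1 of the S-phase and 0 of the mitotic list, against 2.69% of all genes. The 1 was Rpa3, at -0.58 (SE 0.20), and at -0.57 (SE 0.21) without Ptprz1+/+ replicate 2. Lower without overlap in the libraries labelled Ptprz1-/- were 2 of the S-phase and 1 of the mitotic list, against 3.73% of all genes. The directions of both lists as a whole rested on Ptprz1+/+ replicate 2. Without it 14 of the 45 and 15 of the 63 were below 0, against 48.6% of all genes, and the medians were 0.13 and 0.16. The median ratio of that library to the others was 2.05 and 6.34. With all 6 libraries, at one end of the S-phase list stood Clspn, of the replication checkpoint, at -1.33 (SE 0.75) and Pole, the leading strand polymerase, at -1.25 (SE 0.73), and at the other end the origin recognition genes Orc2 at 0.18 (SE 0.21) and Orc4 at 0.13 (SE 0.24). Without that library Clspn was at -0.00 (SE 0.37) and Pole at -0.15 (SE 0.50). Orc2 was then at 0.03 (SE 0.18) and Orc4 at -0.10 (SE 0.13). Both were lowest in Ptprz1+/+ replicate 2, Orc2 at 12.7 CPM against 16.3 to 21.6 elsewhere and Orc4 at 20.5 CPM against 31.6 to 39.2. In the mitotic list the kinesins Kif15 and Kif4 had -2.19 (SE 1.18) and -1.97 (SE 0.83), while Psrc1 and the checkpoint gene Bub3 had 0.12 (SE 0.16) and -0.11 (SE 0.12). Without that library Kif15 was at -0.15 (SE 0.85), Kif4 at -0.49 (SE 0.40), Psrc1 at 0.21 (SE 0.17) and Bub3 at -0.02 (SE 0.11). Bub3, at 59.3 to 73.7 CPM, barely varied, whereas its partner Bub1 spanned 21.0-fold.

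A list of 27 regulators of G1 and of the passage to S phase was mixed. Over these genes the median log2 fold change was -0.00, with 12 above and 15 below 0, 0 had an adjusted or unadjusted p under 0.05 in the same edgeR test, and the median ratio of Ptprz1+/+ replicate 2 to the others was 0.978. For 5 of the 27 that ratio was above 2, as it was for 1102 of all 13609 genes tested. Lin9, of the MuvB complex, was at 9.40 CPM in Ptprz1+/+ replicate 2 and between 2.48 and 3.60 CPM elsewhere, the largest ratio of the list (3.26). Rbl1, which encodes p107, was at 20.6 CPM against 6.87 to 9.79, and Skp2, which marks p27 for degradation, at 15 CPM against 5.15 to 9.24. These 3 followed the pattern of the S-phase genes in that library. Cdk4, the kinase partner of cyclin D, was between 252 and 348 CPM. Ccnd2, cyclin D2, was at 538, 378 and 772 CPM and at 438, 759 and 585 CPM, lowest in the library where the mitotic genes were highest. Cdkn2a, which encodes p16 and p19Arf, was at 86.1, 51.6 and 176 CPM and at 82.5, 122 and 99.6 CPM. Cdkn1b, which encodes p27, was between 76.5 and 117 CPM and was highest in Ptprz1+/+ replicate 2.

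Cdkn1a, which encodes the CDK inhibitor p21, stood in the exact reverse of the mitotic order, as 0.573% of all genes did, and was the only one of the 27 to do so. It was at 254, 158 and 308 CPM and at 228, 440 and 282 CPM. It was lowest in Ptprz1+/+ replicate 2, where the mitotic genes were highest, and highest in the library labelled Ptprz1-/- replicate 2, where 19 of 28 mitotic genes were lowest. Between the genotypes it overlapped, with a log2 fold change of 0.40 (SE 0.33) and an adjusted p of 1.00 by edgeR's quasi-likelihood test.

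Some of these levels depend on how shared reads were counted. Exons of 15 of the 50 genes overlap those of another gene in GENCODE M21, on the same strand for 3 of them. The longest overlap was that of Gins2 with Gse1 on the opposite strand, over 2758 bases, followed by that of Fen1, so the level of Gins2 is uncertain too. Transcripts of 24 genes shared a stretch of at least 100 bases at 95% identity or more with a transcript of another gene, overlapping genes included. Ccnb1, cyclin B1, matched Ccnb1-ps over 1287 bases at 99.2%, Mcm7 matched Gm5487 over 2157 bases at 97.7%, Uhrf1 matched Gm5648 over 1590 bases at 98.3%, and Pcna matched Pcna-ps2 over 781 bases at 99.2%. Mki67 matched Gm44521 over 216 bases at 98.6%. Cenpf, Bub1 and Ccne1 had neither an overlapping exon nor such a match.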

How the data were processed

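RNA-seq libraries of 3 Ptprz1+/+ and 3 Ptprz1-/- LMVEC isolations were grouped by their labels, which give a replicate number but no batch. The authors deposited 1 table of read counts per gene, not normalized, with FPKM values that equal the count divided by gene length and by the total of the library, on the usual scale (100% of values, within a relative tolerance of 0.001), and their own log2 fold changes and p-values, which were not used. The submitters' notes name STAR, HTSeq, TopHat, DESeq2, edgeR and the builds GRCm38 and mm10. Which step each tool served, versions and strand setting are not given in the sources used here. No pair of libraries had identical counts. The test treats the isolations as independent, and its p-values measure the spread between 3 pools per group. The labels do not say whether libraries of the same number were prepared together. Depth was 14496881 to 17709663 counts per library.

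Counts were scaled by TMM, filtered with filterByExpr and tested over the whole table with edgeR 4.0.16 in R 4.3.3 (glmQLFit, glmQLFTest, genotype only, Benjamini-Hochberg adjustment, threshold 0.05); SE is the absolute log2 fold change over the square root of F. CPM use the TMM-scaled library size, and log2 CPM a prior count of 2. Exact permutation tests were two-sided on CPM (scipy 1.17.1). The test was also run on simulated counts with known changes. Alternatives were DESeq2 1.42.0, upper-quartile scaling, no filter, at least 10 counts in every library, leaving out single libraries, a block for the replicate number, a threshold of 0.1, and both classes without cyclins and transcription factors. Counts of non-overlapping and highest libraries without single libraries, and the further lists, mean FPKM and DESeq2 without Ptprz1+/+ replicate 2, were added after seeing the data. The genes, their classes and the other lists were chosen with earlier results of these data known, and so support nothing by themselves. Genes described one by one were the one with the highest mean CPM of each role, the 3 lowest and 3 highest log2 fold changes of each class, those whose libraries did not overlap, the 5 G1 genes with the highest mean CPM and, from each further list, the 2 lowest and 2 highest. Top2a, Ndc80, Cdc25c, E2f8, Mybl2, Rrm2, Pcna, Cdc6, Ccne2, Rpa3, Lin9, Rbl1 and Skp2 were described after their values were seen. Exon overlaps (bedtools 2.31.1) and transcript matches (minimap2 2.31) used GENCODE M21. Adgre1 and Cd3e of the leukocyte list were not matched.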

Additional observations from a re-analysis of the deposited data

How the results depend on the processing

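No alternative made any of the 50 genes pass the adjusted threshold, and the number of genes called in the whole table stayed at 0 except with DESeq2, which called 31, and the cause was not tested. Leaving out each library in turn, medians lay between -0.91 and 0.10 (S-phase log2 fold change) and between -2.32 and 0.25 (mitotic), and their difference, mitotic minus S-phase, from -1.55 to 0.15. The upper ends came without Ptprz1+/+ replicate 2. The same removal gave the highest values for Brca1 (-1.57 to 0.0085), Bub1 (-2.61 to 0.050), Cdc20 (-2.07 to 0.38), Cdk1 (-1.45 to 0.25), Cenpf (-2.46 to 0.40), Kif2c (-2.82 to 0.41), Mcm6 (-1.61 to 0.18), Mki67 (-2.56 to 0.0061), Prc1 (-1.72 to 0.33), Rrm1 (-0.38 to 0.33), E2f1 (-0.075 to 0.088) and Cdt1 (-0.15 to 0.60). Fen1 ranged from -0.050 to 0.63. Without other libraries the sign turned for Cdt1 (Ptprz1+/+ replicate 3, Ptprz1-/- replicate 1), Fen1 (Ptprz1+/+ replicate 3), E2f1 (Ptprz1-/- replicate 3) and Rrm1 (Ptprz1-/- replicate 2). E2f1 was at 0.0013 with no filter on low counts. The number of genes whose libraries did not overlap ranged from 1 to 6, the latter without Ptprz1+/+ replicate 3, when 8.38% of all genes were lower, and was 5 without the library labelled Ptprz1-/- replicate 1, when 8.13% were. No other setting turned a class median or one of the 19 log2 fold changes followed. Fen1 was not tested with at least 10 counts in every library.

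Over all genes the deviations of same-numbered libraries correlated at 0.45 and 0.52 for numbers 1 and 3, above every other pairing (-0.57 to 0.09), but at -0.06 for number 2. Over the 50 genes they correlated at -0.54, -0.69 and 0.31 for numbers 1, 2 and 3. The labels state no pairing, so the main test did not take the numbers as pairs. Each deviation is from the mean of the 3 libraries of a genotype, so these correlations depend on one another. They cannot decide whether libraries of the same number were prepared together. With the replicate number as a block, 0 genes were called, the medians were -0.47 (S-phase) and -0.80 (mitotic), and their difference was -0.33. Genes with few reads, such as Fen1, limit what depth can show.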
